A study of Homo sapiens with 6 samples.

Results

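Transcripts of 34 known p53 target genes were followed in DEV, an established human line grown from nodular lymphocyte predominant Hodgkin lymphoma (NLPHL), which is a tumour of B cells. The genes were chosen by gene symbol, with earlier results of these data known. A gene was taken into account when a probe set (the group of array probes that reports 1 transcript) carried its symbol alone, and the probe set of highest mean over the 6 arrays then stood for it. By this rule 31 of the 34 genes were measured, out of 18404 genes in all. BTG2 and FDXR had no such probe set, TNFRSF10C shared its probe set with other symbols, and all 3 were not analysed here.

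Affymetrix Gene arrays measured DEV cells in 3 groups of 2 arrays each, namely DEV cells from monoculture, DEV cells grown beside T cells (CD3-positive) and DEV cells grown beside monocytes (CD14-positive). The blood cells came from healthy donors and were added at 10 per DEV cell. At day 5 the DEV cells of the cocultures were isolated with magnetic beads against CD4, CD8 and CD14, a step that the methods describe for cocultures only, so that bead handling and the presence of blood cells cannot be told apart. All arrays come from 1 cell line with no agent added. The labels do not say whether the replicates of a group were separate cultures. The paper describes 2 replicates, taken as representative of several experiments. The p-values thus measure the spread between these chosen arrays.

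The protein p53 is a transcription factor that is kept scarce by MDM2, a ligase that marks it for destruction, and that accumulates when DNA is damaged or cells are stressed. It binds pairs of a decameric DNA motif and switches on genes that halt the cell cycle, repair DNA, start cell death, adjust metabolism and restrain p53 itself. In B cells of the germinal centre, from which NLPHL derives, BCL6 is known to hold the p53 response down. The p53 status of DEV is not given in the sources used here, and the gene of p53 was not analysed here.

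To show what the start sites of these genes look like, RefSeq windows of assembly GRCh38.p14 were read, from 250 bases before to 50 bases after the transcription start. Of the 31 measured genes 23 had a window. GADD45A, TP53INP1, TNFRSF10B, TNFRSF10D, RRM2B, PHLDA3, FBXO22 and ASCC3 had none. The windows below are those of the 3 genes with a window that had the smallest p for coculture against monoculture (SESN1, POLH and DDB2) and of the 2 genes whose window held a p53 decamer (AEN and PLK2). Capitals mark p53 decamers and GGGCGG, the GC box bound by SP1, on either strand, and the window of DDB2 holds neither.
SESN1, chr6:109094797-109095096, minus strand: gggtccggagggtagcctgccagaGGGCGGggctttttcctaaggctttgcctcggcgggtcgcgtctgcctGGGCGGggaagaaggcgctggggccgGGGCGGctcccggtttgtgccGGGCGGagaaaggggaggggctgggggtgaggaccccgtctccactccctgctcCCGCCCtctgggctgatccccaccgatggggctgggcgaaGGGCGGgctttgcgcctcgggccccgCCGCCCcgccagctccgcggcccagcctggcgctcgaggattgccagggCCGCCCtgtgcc
POLH, chr6:43575935-43576234, plus strand: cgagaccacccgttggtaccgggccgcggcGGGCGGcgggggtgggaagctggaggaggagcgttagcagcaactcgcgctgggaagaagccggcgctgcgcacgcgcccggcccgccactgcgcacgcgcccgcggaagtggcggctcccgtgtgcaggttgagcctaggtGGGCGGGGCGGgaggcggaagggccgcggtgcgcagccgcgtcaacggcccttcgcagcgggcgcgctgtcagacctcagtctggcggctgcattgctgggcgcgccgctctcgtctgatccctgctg
DDB2, chr11:47214204-47214503, plus strand: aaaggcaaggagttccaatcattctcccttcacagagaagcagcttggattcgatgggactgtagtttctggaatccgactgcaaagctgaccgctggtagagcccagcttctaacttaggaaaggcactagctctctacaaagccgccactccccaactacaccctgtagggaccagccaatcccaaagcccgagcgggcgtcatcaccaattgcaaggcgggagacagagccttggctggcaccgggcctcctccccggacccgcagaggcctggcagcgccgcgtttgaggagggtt
AEN, chr15:88621090-88621389, plus strand: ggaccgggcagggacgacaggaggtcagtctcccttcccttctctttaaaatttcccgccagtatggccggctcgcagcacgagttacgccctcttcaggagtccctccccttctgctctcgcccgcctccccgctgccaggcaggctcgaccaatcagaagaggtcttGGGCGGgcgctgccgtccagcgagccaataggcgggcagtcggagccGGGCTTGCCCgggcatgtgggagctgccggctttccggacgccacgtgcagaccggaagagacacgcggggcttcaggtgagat
PLK2, chr5:58460037-58460336, minus strand: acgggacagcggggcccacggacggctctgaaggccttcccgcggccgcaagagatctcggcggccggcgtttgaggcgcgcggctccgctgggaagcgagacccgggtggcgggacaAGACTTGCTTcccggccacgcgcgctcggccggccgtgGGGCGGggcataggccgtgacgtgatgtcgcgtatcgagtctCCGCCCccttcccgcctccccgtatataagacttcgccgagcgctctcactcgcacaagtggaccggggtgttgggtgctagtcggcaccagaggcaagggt

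The p53 decamer was found in 2 of the 23 windows, at bases -34 to -25 in AEN and -132 to -123 in PLK2, counted from the transcription start, against 5.95% of the 14230 windows of genes on the array. A pair of decamers with a spacer of 0 to 13 bases was found in 0 of the 23 windows and in 0.0211% of those of all genes. A pair of CATG cores spaced by 6 bases, which was searched on both strands and may overlap a decamer, occurred in the window of TRIAP1 alone, at bases 32 to 45 after the start, against 0.246% of all. The GC box stood in 21 of the 23 windows (91.3%), against 60.0% of all genes, and DDB2 and TP53I3 lacked it. The windows were rich in G and C, with a median of 71.0% against 63.0% for all genes. A single window was read per gene. For AEN, among others, it lies inside the gene, which begins at base 88604683 of chromosome 15. These are matches of letters in a short window, and other starts and sites further away were not searched.

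The 31 measured genes lay mostly above monoculture when DEV cells had grown beside blood cells. SESN1 and TP53INP1 rose over both cocultures, by 1.96-fold and 1.88-fold, and the other 29 genes did not pass the threshold. As a whole, 25 of 31 genes had a higher mean in coculture, with a median log2 difference of 0.21, against 57.5% of all 32321 probe sets with a higher mean and a median of 0.028. By limma (adjusted p under 0.05, adjusted over all probe sets) 2 of the 31 genes were called, both higher, where 0.718% of all probe sets were called (0.248% higher and 0.470% lower). At an unadjusted p under 0.05, 12 genes were higher and 0 lower, against 8.22% and 10.6% of all probe sets. In a further list of 39 other p53 targets, 23 had higher means, with a median of 0.098.

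The calls of SESN1 and TP53INP1 were lost when some single arrays were left out, while both genes stayed higher in coculture. With each array left out in turn, the log2 difference of SESN1 ran from 0.87 to 1.06. That of TP53INP1 ran from 0.77 (without monoculture replicate 1) to 1.054 (without monoculture replicate 2). Leaving out either monoculture array or either monocyte coculture array left 1 array in that group. Neither gene was then called, nor was any other probe set. The median of the 31 genes stood at 0.19 and 0.24 without monoculture replicates 1 and 2. It stood at 0.20 and 0.26 without monocyte coculture replicates 1 and 2, against 0.021 to 0.028 over all probe sets in these fits. Without T cell coculture replicate 1, 7 were called (SESN1, TP53INP1, TNFRSF10B, DDB2, CCNG1, POLH and GDF15), where 7.21% of all probe sets were called in that setting, and without replicate 2 SESN1 and DDB2 were called but TP53INP1 was not. With a variance trend on intensity neither gene passed (limma adjusted p = 0.0627 for SESN1 and 0.0616 for TP53INP1), and after quantile normalization TP53INP1 did not (limma adjusted p = 0.0569).

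In the single arrays the shift was graded. Measured from the monoculture mean, the median of the 31 genes stood at 0.15 and 0.22 in T cell coculture replicates 1 and 2 and at 0.31 and 0.33 in monocyte coculture replicates 1 and 2. The median of all probe sets ran from 0.0026 to 0.041 in these arrays. All 4 coculture arrays lay above both monoculture arrays for 13 of the 31 genes, a separation seen in 15.2% of all probe sets. TP53I3 alone had all 4 below, against 13.8% of all probe sets.

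**Figure D1:**
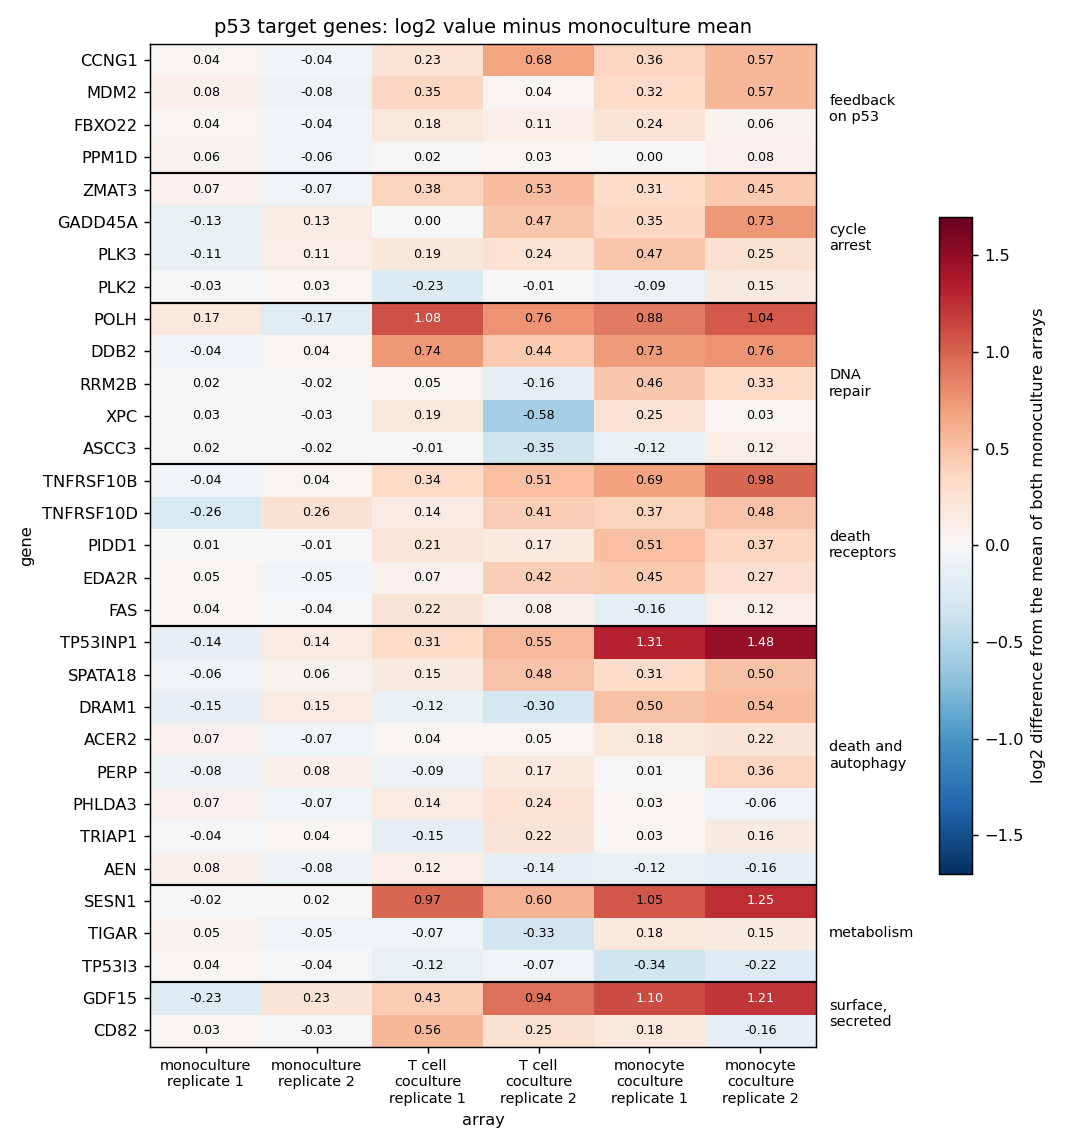
Heat map of the 31 measured p53 target genes (rows, grouped by role) in the 6 arrays (columns), where colour and number give the log2 value minus the mean of both monoculture arrays. TP53INP1, SESN1, GDF15 and POLH are the strongest reds in the monocyte coculture columns, and TP53I3 is below 0 in all 4 coculture arrays.

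Metabolism and redox genes held the first called gene and the lowest one. SESN1 (chromosome 6, 108984309 to 109094846, GRCh38.p14), a sestrin that restrains mTORC1 under stress and is also known as a FOXO target, read 6.64 and 6.68 in monoculture, 7.64 and 7.26 beside T cells, and 7.71 and 7.92 beside monocytes. Each coculture array was above both monoculture arrays. SESN1 rose by 0.97 ± 0.13 (standard error) on the log2 scale over both cocultures (limma adjusted p = 0.0464). Its group means were 6.66 ± 0.030, 7.45 ± 0.27 and 7.81 ± 0.14 in that order of groups (SD, n = 2). TIGAR, which lowers glycolytic flux, read 6.57 and 6.46 in monoculture, 6.44 and 6.19 with T cells and 6.70 and 6.67 with monocytes, so that both T cell arrays lay below and both monocyte arrays above monoculture. TP53I3, a quinone oxidoreductase, read 6.42 and 6.34 in monoculture, 6.26 and 6.31 with T cells and 6.04 and 6.16 with monocytes. Its difference over both cocultures, -0.19 ± 0.081, did not pass (limma adjusted p = 0.289).

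Cell death, autophagy and mitochondrial genes held the second called gene. TP53INP1 (chromosome 8, 94925972 to 94949378), a nuclear stress protein that promotes p53 activity and autophagy, read 5.86 and 6.14 in monoculture, 6.31 and 6.55 with T cells, and 7.31 and 7.48 with monocytes. The 3 groups did not overlap. It rose by 0.91 ± 0.13 over both cocultures (limma adjusted p = 0.0486), with group means of 6.0 ± 0.20, 6.43 ± 0.17 and 7.39 ± 0.12 (SD, n = 2). SPATA18, which acts in the removal of damaged mitochondria, read 5.94 and 6.06 in monoculture, 6.15 and 6.49 with T cells and 6.31 and 6.50 with monocytes, a difference of 0.36 ± 0.12 (limma adjusted p = 0.194). Of the other 6 genes none was called: differences were 0.15 for the lysosomal autophagy gene DRAM1, 0.12 for the ceramidase ACER2, 0.11 for PERP, 0.090 for the AKT inhibitor PHLDA3, 0.064 for TRIAP1, which favours survival, and -0.076 for the nuclease AEN. AEN, whose window above holds a p53 decamer, read 7.62 and 7.45 in monoculture, 7.65 and 7.39 with T cells and 7.41 and 7.37 with monocytes, so that its T cell arrays lay on both sides of monoculture and its monocyte arrays below it.

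DNA repair and nucleotide supply genes split. POLH, the polymerase that copies past ultraviolet damage, read 7.66 and 7.31 in monoculture, 8.56 and 8.25 with T cells and 8.36 and 8.52 with monocytes. Its difference was 0.94 ± 0.14 (1.92-fold), just short of the threshold (limma adjusted p = 0.0517). DDB2, which recognises damaged DNA in nucleotide excision repair, read 7.44 and 7.53 in monoculture, 8.23 and 7.93 with T cells and 8.21 and 8.25 with monocytes, a difference of 0.67 ± 0.11 (limma adjusted p = 0.0545). Both genes were separated from monoculture in all 4 coculture arrays without being called. XPC, the other damage sensor of that pathway, differed by -0.029 ± 0.21 with T cell arrays of 7.02 and 6.25 on either side of monoculture. The ribonucleotide reductase subunit RRM2B differed by 0.17 and the helicase ASCC3 by -0.090.

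Over both cocultures the death receptors and their adaptors all had higher means, as did 57.5% of all probe sets. Of these 5 genes 0 were called by limma, against 0.718% of all probe sets. At an unadjusted p under 0.05, 2 were higher, against 8.22% of all probe sets. Beside monocytes alone the mean of FAS was below monoculture (-0.021 ± 0.12). TNFRSF10B, the death receptor DR5, which is also induced by the ER stress factor CHOP, read 6.79 and 6.88 in monoculture, 7.17 and 7.35 with T cells and 7.52 and 7.81 with monocytes. The 3 groups were ordered without overlap, with a difference over both cocultures of 0.63 ± 0.11 (limma adjusted p = 0.0614). PIDD1, the scaffold of the PIDDosome that activates caspase 2, read 6.21 and 6.20, then 6.42 and 6.37, then 6.71 and 6.57 in the same order of groups (0.31 ± 0.081, limma adjusted p = 0.112). The decoy receptor TNFRSF10D differed by 0.35 ± 0.16 with monoculture arrays of 5.83 and 6.35 far apart, EDA2R by 0.30 ± 0.12 and FAS by 0.066 ± 0.11. TNFRSF10D and TNFRSF10B belong to a cluster of related receptor genes, so the assignment of either signal to 1 gene is uncertain.

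Among the 31 genes, those of cell cycle arrest and of feedback on p53 differed by -0.045 to 0.46. The arrest gene CDKN1A is not one of the 31 and is described below with the other p53 targets. Its means were 6.30 in monoculture, 7.19 with T cells and 7.39 with monocytes. ZMAT3, an RNA-binding regulator of splicing, read 8.62 and 8.48 in monoculture, 8.93 and 9.08 with T cells and 8.86 and 9.0 with monocytes (0.42 ± 0.095, limma adjusted p = 0.0908). PLK3, a stress kinase, read 6.01 and 6.23, then 6.31 and 6.36, then 6.59 and 6.38 (0.29 ± 0.11, limma adjusted p = 0.217). In both, every coculture array was above both monoculture arrays. GADD45A, a growth arrest gene, differed by 0.39 ± 0.18, with T cell coculture replicate 1 at 7.01 between the monoculture arrays of 6.87 and 7.13. PLK2, whose window held the other p53 decamer, differed by -0.045 ± 0.11. CCNG1, a cyclin that promotes MDM2 activity, read 9.82 and 9.73 in monoculture, 10.00 and 10.45 with T cells and 10.13 and 10.34 with monocytes (0.46 ± 0.14, limma adjusted p = 0.166). MDM2 itself read 9.34 and 9.18, then 9.60 and 9.29, then 9.58 and 9.83 (0.32 ± 0.13, limma adjusted p = 0.258). In MDM2 the coculture arrays overlapped monoculture through T cell coculture replicate 2 alone. The F-box gene FBXO22 differed by 0.15 and the phosphatase PPM1D, which switches off the DNA damage response, by 0.032.

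The secreted and surface genes were unlike each other. GDF15, a cytokine released by stressed cells that ATF4 also induces, read 5.29 and 5.74 in monoculture, 5.95 and 6.45 with T cells and 6.62 and 6.73 with monocytes. All 3 groups were apart, but the spread within monoculture (SD 0.32) and T cell coculture (SD 0.36) was wide, and the difference of 0.92 ± 0.18 did not pass (1.89-fold, limma adjusted p = 0.0738). Without monoculture replicate 1 it was 0.70, and without monoculture replicate 2 it was 1.15. The tetraspanin CD82 differed by 0.21 ± 0.14.

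**Figure D2:**
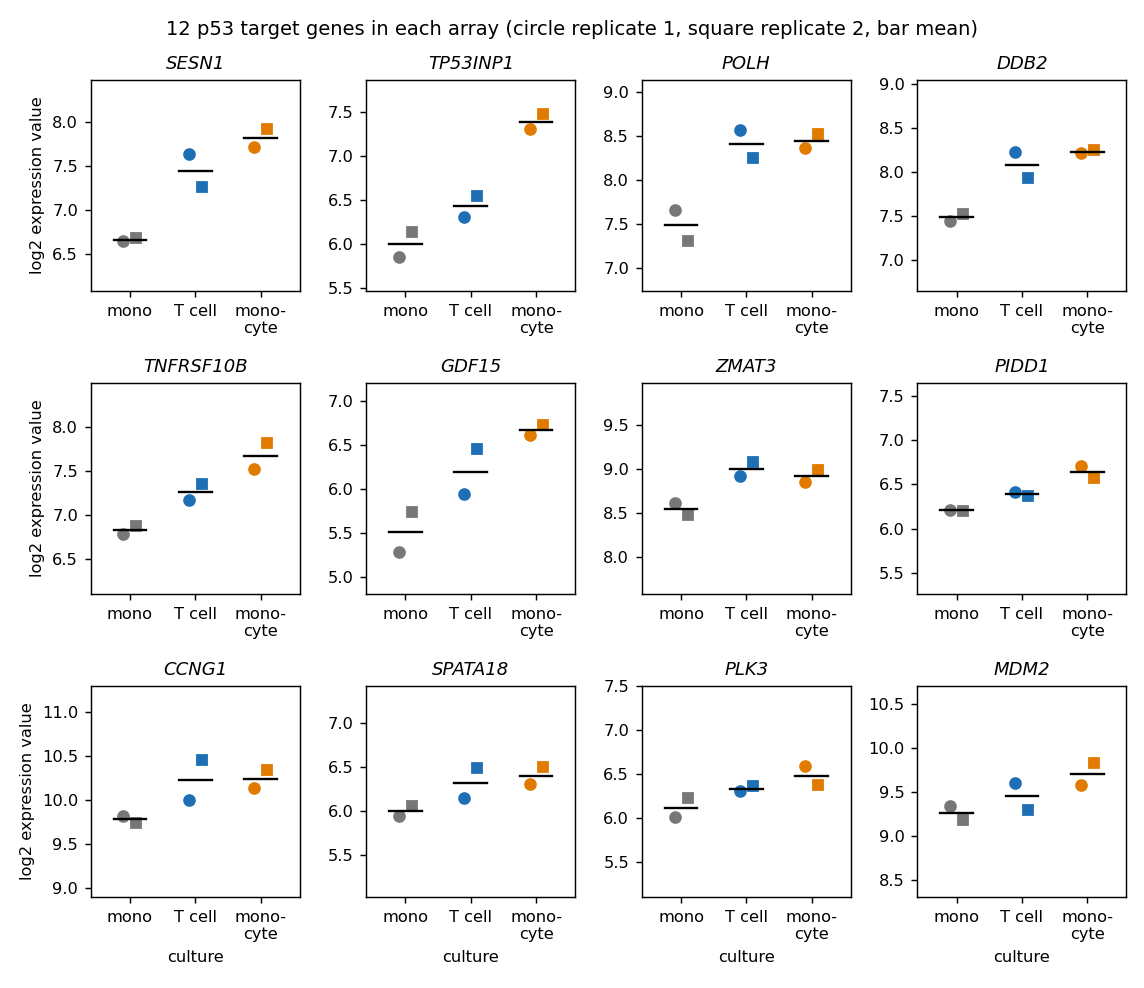
Log2 expression value of the 12 genes of smallest p over both cocultures in each of the 6 arrays (grey for monoculture, blue for T cell and orange for monocyte coculture), drawn in panels of equal log2 range. Replicate 1 is a circle, replicate 2 a square and the group mean a bar, and in 11 of the 12 panels all coculture points are above both grey points, MDM2 being the exception. Genes picked by the p of this difference are mostly separated for that reason. Of all 31 genes 13 were separated in this way, against 15.2% of all probe sets.

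The cocultures were then set against monoculture one at a time, with the same 2 monoculture arrays in both comparisons. Beside monocytes TP53INP1 rose by 1.39 ± 0.15 (2.63-fold, limma adjusted p = 0.0439) and SESN1 by 1.15 ± 0.15 (2.22-fold, limma adjusted p = 0.0471). These were 2 of 31 genes called, all higher, where 0.579% of all probe sets were called (0.229% higher). Next came TNFRSF10B at 0.84 ± 0.13 (limma adjusted p = 0.0546), DDB2 at 0.75 ± 0.12, POLH at 0.96 ± 0.17 and GDF15 at 1.16 ± 0.21 (2.23-fold, limma adjusted p = 0.0693), none of which passed. The median of the 31 genes was 0.36, with 26 higher means, against a median of 0.028 over all probe sets. Both monocyte arrays lay above both monoculture arrays for 21 genes and below for 2 (TP53I3 and AEN), against 27.8% and 22.4% of all probe sets. With either monoculture or either monocyte coculture array left out, none of the 31 genes was called by limma. Their median was then 0.27 to 0.33, against 0.020 to 0.029 over all probe sets. With only the 4 arrays compared, 6 genes were called, and 3.61% of all probe sets. Leaving out either T cell coculture array gave that same result, because a group of 1 array adds nothing to the spread. With a variance trend on intensity neither gene passed (limma adjusted p = 0.0556 for TP53INP1 and 0.066 for SESN1). With all arrays 16 genes were higher and 1 lower (TP53I3) at an unadjusted p under 0.05, against 7.67% and 9.88% of all probe sets.

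Beside T cells 0 of the 31 genes and 0 of all probe sets (0%) were called by limma. At an unadjusted p under 0.05, 9 genes were higher and 0 lower, against 6.70% and 8.73% of all probe sets. The largest differences were 0.92 ± 0.17 for POLH (limma adjusted p = 0.119), 0.78 ± 0.15 for SESN1 (limma adjusted p = 0.125), 0.69 ± 0.21 for GDF15 and 0.59 ± 0.12 for DDB2. The median was 0.19 with 23 higher means, against 0.024 over all probe sets. Both T cell arrays lay above both monoculture arrays for 16 genes and below for 2 (TP53I3 and TIGAR), against 25.7% and 20.9% of all probe sets.

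**Figure D3:**
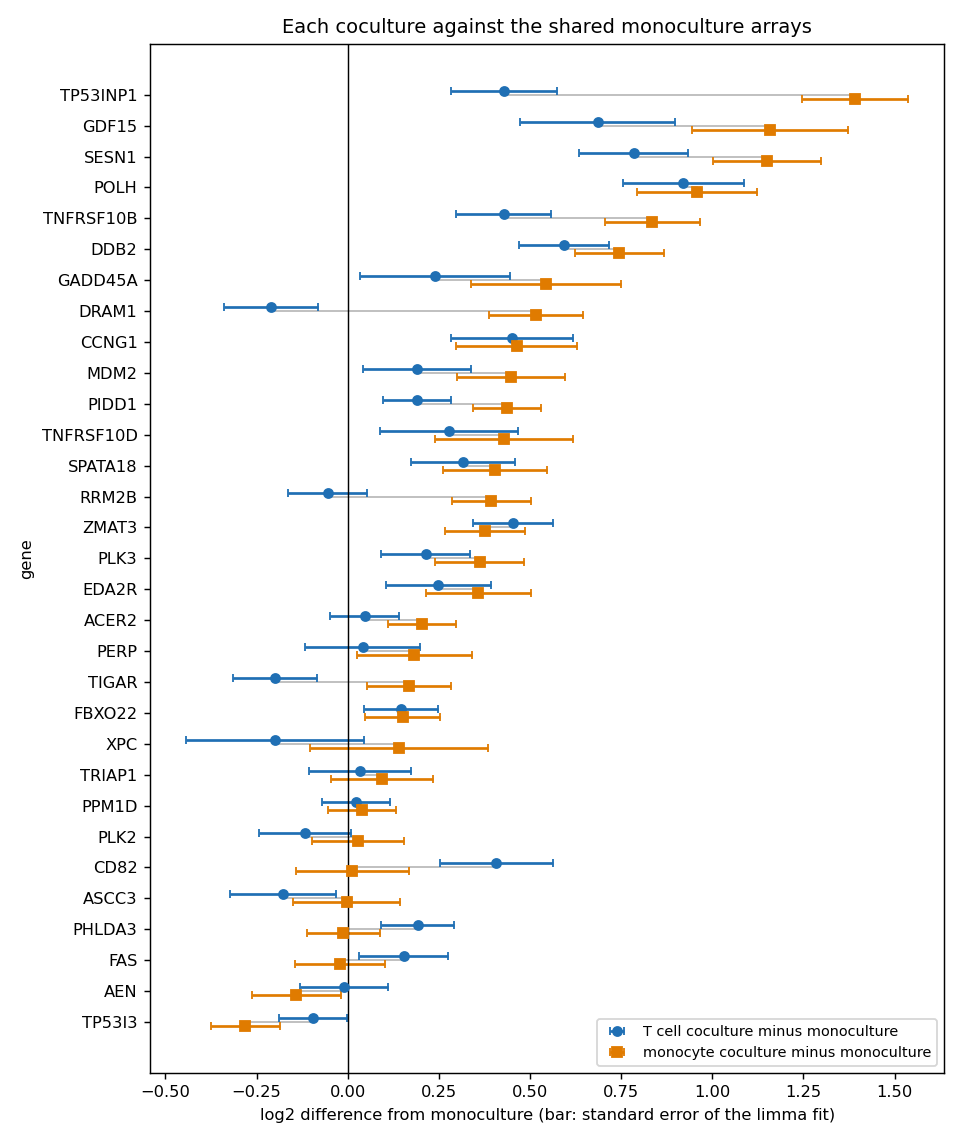
Log2 difference from monoculture of the 31 genes, with T cell coculture as blue circles, monocyte coculture as orange squares and bars for the standard error of the limma fit; both share the monoculture arrays. TP53INP1 stands at 1.39 with monocytes and 0.43 with T cells, DRAM1 at 0.52 and -0.21, while both symbols of POLH lie near 0.94.

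The difference between both cocultures was tested directly. Monocyte coculture minus T cell coculture gave 0 calls among the 31 genes and 0 among all probe sets (0%) by limma, with 7 of the 31 genes higher beside monocytes and 1 lower (CD82) at an unadjusted p under 0.05, against 3.47% and 4.03% of all probe sets. The 4 genes with the smallest p were all higher beside monocytes. TP53INP1 differed by 0.96 ± 0.15 (interval of 95% from 0.61 to 1.32, limma adjusted p = 0.444). DRAM1, which read 6.22 and 6.51 in monoculture, 6.25 and 6.06 with T cells and 6.86 and 6.91 with monocytes, differed by 0.73 ± 0.13 (0.41 to 1.04, limma adjusted p = 0.444). RRM2B read 6.63 and 6.58, then 6.65 and 6.45, then 7.06 and 6.93, a difference of 0.45 ± 0.11 (0.18 to 0.71, limma adjusted p = 0.505). For TIGAR the difference was 0.37 ± 0.11 (0.088 to 0.65, limma adjusted p = 0.563). In all 4 genes the monocyte arrays were above the T cell arrays, a separation found for 10 of the 31 genes and for 17.6% of all probe sets. For PHLDA3, TP53I3 and CD82 they were below, as in 17.1% of all probe sets.

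TNFRSF10B differed by 0.41 ± 0.13 between the cocultures, SESN1 by 0.37 ± 0.15, PIDD1 by 0.25 ± 0.093 and GDF15 by 0.47 ± 0.21, all with higher means beside monocytes and none past the threshold. POLH, CCNG1 and ZMAT3 had similar means in both cocultures, with wide intervals. The interval of POLH ran from -0.37 to 0.44, that of CCNG1 from -0.39 to 0.42 and that of ZMAT3 from -0.34 to 0.19. CD82 read 7.41 and 7.35 in monoculture, 7.94 and 7.64 with T cells and 7.57 and 7.23 with monocytes, so that it was higher beside T cells by 0.39 (log2 difference of monocyte minus T cell coculture -0.39 ± 0.16, limma adjusted p = 0.646). The median of the 31 genes was 0.15, against 0.0019 over all probe sets.

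Markers of cell type were measured beside these results. Of 10 B cell markers 7 were measured, 4 with higher and 3 with lower means over both cocultures and 0 called by limma (2 higher and 2 lower at an unadjusted p under 0.05). MS4A1, the surface antigen CD20, ran from 9.21 to 9.22 in monoculture and from 9.62 to 9.87 in the cocultures, and the B cell receptor inhibitor CD22 also lay above monoculture in all 4 coculture arrays (0.70 ± 0.13, limma adjusted p = 0.0664). PAX5, the factor that sets B cell identity, was lower in every coculture array, with 10.23 and 10.00 in monoculture, 9.57 and 7.77 with T cells and 8.26 and 7.43 with monocytes (-1.86 ± 0.50 over both cocultures, limma adjusted p = 0.122). The kinase gene BLK was lower too (-0.25 ± 0.079, limma adjusted p = 0.160), and so was the mean of CD79B (-0.61 ± 0.34). The part of these markers in the results was not tested. The summed signal of 12 T cell markers ran from 9.59 to 9.60 on the log2 scale in T cell coculture, against 9.61 to 9.64 in monoculture. The brightest of them was CD3D, at 8.26 and 8.33 in monoculture and 8.07 and 8.12 with T cells, while 9 of the 12 had higher means beside T cells (median 0.063, with 0 called by limma and 0 under 0.05 before adjustment), among them CD3E with 5.06 and 4.98 against 5.50 and 5.12. The summed signal of 6 NK cell markers ran from 8.04 to 8.05 against 7.89 to 7.97. The summed signal of 11 measured monocyte markers of 12 ran from 10.13 to 10.45 in monocyte coculture against 9.13 to 9.32 in monoculture and 9.29 to 9.61 in T cell coculture. LYZ, the lysozyme of monocytes, read 8.42 in monocyte coculture replicate 1 but 5.06 in replicate 2, against 5.02 and 4.98 in monoculture, and CD14 read 6.15 and 5.42 against 5.31 and 5.21. CD68, a lysosomal protein abundant in macrophages, read 9.15 and 9.45 in the monocyte cocultures and 7.64 and 8.44 with T cells, against 7.13 and 7.62 in monoculture. Of the 11 monocyte markers, 9 had higher and 2 (S100A9 and VCAN) lower means beside monocytes than in monoculture. Among these markers 0 were called by limma, and 2 were higher at an unadjusted p under 0.05, against 7.67% of all probe sets. Of the 31 p53 target genes, 21 were higher in monocyte coculture replicate 2 than in replicate 1 and 10 were lower. TP53INP1 and SESN1 were among the first, and RRM2B, PIDD1, PLK3 and TIGAR among the second. The part of monocyte RNA in the differences was not tested, and in such bulk samples fewer cells of a type and less RNA per cell cannot be told apart.

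Further genes of the pathway were taken from lists of p53 regulators, other p53 targets and DREAM repressed genes. Of 39 other p53 targets measured, 23 had higher means over both cocultures (of all probe sets 57.5% had), with a median of 0.098. The 1 called was TM7SF3 (2.56%, against 0.718% of all probe sets). It read 7.91 and 7.78 in monoculture, 8.37 and 8.38 with T cells and 8.60 and 8.52 with monocytes, and rose by 0.62 ± 0.082 (limma adjusted p = 0.0458). It also rose beside monocytes, by 0.71 ± 0.094 (limma adjusted p = 0.0473). The cell cycle inhibitor CDKN1A, the classical p53 target, read 6.07 and 6.53, then 7.27 and 7.10, then 7.50 and 7.28, a difference of 0.99 ± 0.15 that did not pass (limma adjusted p = 0.053). FUCA1, a lysosomal fucosidase, differed by 0.49 ± 0.080 over both cocultures (limma adjusted p = 0.0557) and rose beside monocytes by 0.73 ± 0.092 (limma adjusted p = 0.0464). Beside monocytes TM7SF3 and FUCA1 were the 2 of 39 called (5.13%, against 0.579% of all probe sets). With a variance trend on intensity 0 of all probe sets were called beside monocytes, so both calls were lost. The lipase gene ABHD4 differed by 1.55 ± 0.27 (limma adjusted p = 0.059), from 7.19 and 7.54 in monoculture to 8.43 and 9.28 with T cells and 8.74 and 9.21 with monocytes. At an unadjusted p under 0.05, 11 of these 39 were higher and 2 lower, against 8.22% and 10.6% of all probe sets.

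The regulators of p53 were split between higher and lower means, and no test compared them with the targets. Of 22 measured, 10 had higher and 12 lower means over both cocultures (median -0.018), and 0 were called by limma (1 higher and 3 lower at an unadjusted p under 0.05, which 8.22% and 10.6% of all probe sets passed). The ubiquitin ligase COP1, which can target p53, differed by -0.54 ± 0.13 (limma adjusted p = 0.103), the deubiquitinase USP7, which stabilises both MDM2 and p53, by -0.47 ± 0.14, the damage kinase ATR by -0.53 ± 0.17 and the kinase HIPK2 by 0.26 ± 0.091. The MDM2 relative MDM4 differed by 0.078 ± 0.13; it was singled out after its values were seen.

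The DREAM complex represses mitotic genes when p53 raises CDKN1A. Of 14 such genes measured, 0 were called in any of the comparisons by limma, and over both cocultures 0 passed an unadjusted p of 0.05 (median -0.029). CCNB1, the mitotic cyclin B1, differed by -0.24 ± 0.14, PRC1 by 0.19 ± 0.17, TOP2A by 0.12 ± 0.12 and BUB1 by -0.17 ± 0.23. The medians had opposite signs, 0.17 beside T cells (13 of 14 with higher means, against 56.2% of all probe sets) and -0.25 beside monocytes (12 of 14 with lower means, where 56.6% of all probe sets had higher ones). Monocyte minus T cell coculture gave a median of -0.42, with 7 of 14 lower at an unadjusted p under 0.05, against 4.03% of all probe sets. The monoculture arrays themselves differed in these genes, with a median 0.15 above their mean in replicate 1 and 0.15 below it in replicate 2, and T cell coculture replicate 1 stood at 0.35 against -0.025 in replicate 2.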

How the data were processed

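For each sample 40 ng of RNA underwent whole transcriptome amplification and biotin labelling before hybridisation to its own array. The authors deposited normalized values on a log2 scale, with 1 per probe set and array. How they summarised, background-corrected and normalized the probes is not given in the sources used here. The medians of the arrays ran from 5.64 to 5.73 over 32321 probe sets, with 0 missing values. The number of arrays limits the precision. Values were used as deposited, without scaling or filter. Groups and replicate numbers came from the labels.

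One mean per group was fitted by lmFit and eBayes of limma 3.58.1 under R 4.3.3 over all 6 arrays (3 residual and 3.08 prior degrees of freedom). Adjustment was by Benjamini-Hochberg over all probe sets of each of 4 comparisons, and the fit was tested on simulated data. Gene symbols came from the platform annotation, of which 0 needed an update by Entrez identifier. Every one of the 34 genes was accounted for; those called, the 12 with the smallest p for both cocultures and the 4 with the smallest p between cocultures were described in full, and from each further list the called genes and up to 4 others. The genes and lists were chosen with earlier results of these data known. Alternatives were quantile normalization, median centring, a filter on dim probe sets, a replicate block, an intensity trend, means over all probe sets of a gene, only the arrays compared and leaving out each array.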

Additional observations from a re-analysis of the deposited data

Results flagged for a closer look

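TIGAR is given here because its coculture arrays lay on opposite sides of monoculture. Both T cell arrays (6.44 and 6.19) lay below and both monocyte arrays (6.70 and 6.67) above the monoculture arrays (6.57 and 6.46). Neither difference from monoculture passed (-0.20 and 0.17), and the means of DRAM1 (-0.21 and 0.52) and XPC (-0.20 and 0.14) also had opposite signs. The log2 difference of monocyte minus T cell coculture was 0.37 ± 0.11, which did not pass over all probe sets (limma adjusted p = 0.563). With single arrays left out, the lowest value was 0.24 (T cell coculture replicate 2 omitted) and the highest 0.49 (T cell coculture replicate 1 omitted).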

How the results depend on the processing

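The 2 arrays per group limit every call, and the number of genes called moved with the setting while its direction did not: each called gene was higher. Over both cocultures (2 called) the count was 5 without the dimmest 40% of probe sets (3.9% of all called) and 7 with means of all probe sets of a gene (7.67%). It was 0 with an intensity trend (0.17%). With that trend 12 genes were higher at an unadjusted p under 0.05, which 5830 of all 32321 probe sets passed in either direction. The count also moved when single arrays, or both first coculture arrays (chosen after seeing the data), were left out. For monocyte coculture (2 called) the count was 6 (2.95%), 7 (6.43%) and 0 (0%) in the same first 3 settings. With the intensity trend 16 genes were higher at an unadjusted p under 0.05, which 5460 of all probe sets passed in either direction. It was 6 with only the 4 arrays compared (3.61%), a fit that leaving out either T cell coculture array repeats. The calls were lost when single monoculture or monocyte coculture arrays were left out. For T cell coculture (0 called, 9 at an unadjusted p under 0.05) means of all probe sets of a gene gave 2, SESN1 and POLH (1.99% of all called). Each of the 31 genes had only 1 probe set, so its values and differences were unchanged by taking means. That setting differed in testing 18404 genes in place of 32321 probe sets. The replicate block called TP53INP1 and GDF15 over both cocultures and TP53INP1, TNFRSF10B and GDF15 beside monocytes, so that SESN1 was lost in both (adjusted p = 0.0521 and 0.0542). Same-numbered arrays deviated together only in part (r = 0.027, -0.15 and 0.26 between groups over all probe sets, and 0.46, 0.21 and 0.37 over the 31 genes). With 2 numbers and no label that ties them to a shared culture or day, they were not treated as pairs. Quantile normalization lost TP53INP1 over both cocultures and called SESN1, DDB2 and POLH.

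The median of the 31 genes stayed above 0 in every setting and comparison. Over both cocultures (0.21) it was 0.15 after median centring, 0.25 after quantile normalization, 0.25 without the dimmest 40% of probe sets, 0.25 without both first coculture arrays and 0.18 to 0.26 when single arrays were left out. Beside monocytes (0.36) it was 0.30 after median centring, 0.33 without both first coculture arrays and 0.27 to 0.36 when single arrays were left out. Beside T cells (0.19) it was 0.13 after median centring and 0.13 to 0.22 when single arrays were left out, and between the cocultures (0.15) it was 0.072 to 0.18. Over both cocultures, 28 of 31 genes had higher means after quantile normalization and 24 after median centring, against 25, and beside T cells 19 after median centring, against 23. Over all probe sets the calls were 90 higher and 112 lower, and 120 and 444, in these 2 settings, against 80 and 152. Without T cell coculture replicate 1, 2329 of all probe sets were called. Median centring shifts all values of an array by a constant, so the differences of all probe sets moved alike. The median of all probe sets went from 0.028 to -0.035 over both cocultures and from 0.024 to -0.034 beside T cells. The cause of the other changes was not tested.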
